A study of Mus musculus with 42 samples.

Results

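The expression of 10 genes of the bone morphogenetic protein (BMP) axis was followed through the differentiation of mouse embryonic stem cells: the ligand genes Bmp2, Bmp4 and Bmp7, the target genes Id1, Id2, Id3 and Id4, the feedback inhibitor Smad6 and the homeobox targets Msx1 and Msx2. The genes were chosen by name and matched by symbol to the Ensembl identifiers of the deposited files. All 10 were present among the 14296 genes listed there. The cells were of a single low-passage line, W9.5, of the 129X1/SvJ strain background, and no group carried a transgene, deletion or added agent. Differentiation was undirected: leukemia inhibitory factor (LIF), the cytokine that holds mouse stem cells in the undifferentiated state, was withdrawn and the cells grew as embryoid bodies. Poly-A RNA was sequenced every 6 h from 0 h, the undifferentiated cells, to 120 h. The 42 libraries formed duplicate time courses, called replicates A and B, with 1 library from each course at each of the 21 time points, so n = 2 for every value below. Where a pair of values is given, replicate A comes first.

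BMP ligands are secreted dimers that bind paired serine/threonine kinase receptors, which phosphorylate Smad1, Smad5 and Smad9. These enter the nucleus with Smad4 and switch on a compact set of targets, among which the Id genes are the best known. Id proteins lack a DNA-binding region and inhibit basic helix-loop-helix factors by pairing with them. In mouse stem cell culture, BMP4 acting through Id proteins together with LIF restrains neural differentiation, and in the embryo BMP signals help to form the posterior primitive streak, the surface ectoderm and the extraembryonic mesoderm.

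Library depth ranged from 10120972 to 51652434 counted reads with a median of 29692082, at which 3 reads correspond to between 0.0571 and 0.316 CPM (read counts scaled to a common library size). The median spread between duplicates over all genes was 0.107 (SD of log2 CPM) and was widest at 96 h, with 0.288. All 6 pluripotency markers were listed and summed to between 3404 and 3669 CPM at 0 h and to between 1123 and 1823 CPM from 96 h on. Over the same times, the 4 listed of 6 primitive streak and early mesoderm markers went from between 13.9 and 14.7 CPM to between 53.8 and 473.7 CPM, and the 4 neural ectoderm markers from between 14.4 and 17.7 CPM to between 117.3 and 355.3 CPM. The single listed surface ectoderm marker of 4, Tfap2a, was low throughout, from 0.95 to 1.27 CPM at 0 h and from 2.08 to 6.02 CPM from 96 h on. Tfap2a is also among the further BMP target genes examined below, so it is not a marker apart from the pathway. The 3 listed endoderm markers went from between 2.54 and 3.36 CPM at 0 h to between 8.02 and 27.0 CPM from 96 h on. The 3 listed trophoblast markers summed to 15.6 and 14.2 CPM at 0 h, 1.60 and 1.56 CPM at 48 h and 89.3 and 92.4 CPM at 120 h. For the 6 fibroblast markers these sums were 24.2 and 28.0 CPM, 10.2 and 8.73 CPM and 102.0 and 91.5 CPM. All were bulk libraries of mixed cells, in which fewer cells of a type and less RNA per cell cannot be told apart.

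Levels of different genes were compared per length, as log2 CPM per kb of exon. At 0 h Bmp4 stood highest with a mean of 5.94, followed by Id1 with 4.83, Id2 with 3.39 and Bmp7 with 1.60. Id3 at 0.92 and Smad6 at 0.68 came next with overlapping duplicates, then Id4 at 0.44 and Msx2 at -2.35. Msx1 at -4.32 and Bmp2 at -4.66 were lowest and overlapped. At 48 h the order was led by Id2 (3.98), Id1 (3.58), Id3 (2.73) and Bmp4 (2.23), and Bmp2 was lowest at -5.71. At 120 h Id1 (5.54), Id3 (4.94) and Id2 (4.19) stood above Bmp4 (3.85), Bmp7 (2.95) and Msx2 (2.17), whereas Smad6, Id4, Msx1 and Bmp2, from 1.16 down to 0.84, overlapped with their neighbours in the order. The ligand transcript that dominated the undifferentiated cells had thus moved below 3 of the 4 Id genes.

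The promoter windows of the members were searched for short motifs, since several of the genes moved together. RefSeq on GRCm38.p6 gave a window of 300 bases, from 250 before to 50 after the start, for 7 of the 10 genes, and windows of Id1, Bmp2 and Bmp7 were not analysed here. The GC-rich palindrome GGCGCC, which Smad1 and Smad5 can bind, was present in the windows of Id2 and Id4 and in 11.9% of all 32851 windows. The Smad motif CAGAC, searched on both strands, was found in the window of Id3 alone among the 7 and in 49.6% of all windows. The E-box CANNTG, which basic helix-loop-helix factors bind, was found in 5 of the 7, those of Id2, Bmp4, Smad6, Msx1 and Msx2, and in 72.3% of all windows. Matches of the 3 motifs were counted separately, whether or not they overlapped each other. The upstream parts outside annotated exons are shown 5′ to 3′ for both genes with GGCGCC, in capitals, and for Smad6, which has none. The windows of Id3, Bmp4, Msx1 and Msx2 had no GGCGCC either. The Id2 stretch is chr12:25096254-25096342 on the minus strand with the motif starting 231 bases before the start, and lies between exons inside the span of the gene in GENCODE. That of Id4 is chr13:48260866-48261115 on the plus strand with the motif starting 148 bases before it, and that of Smad6 is chr9:64022060-64022309 on the minus strand. A match is a description of the letters, not a bound site.
Id2: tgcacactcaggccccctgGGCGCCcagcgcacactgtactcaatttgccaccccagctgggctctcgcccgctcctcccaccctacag
Id4: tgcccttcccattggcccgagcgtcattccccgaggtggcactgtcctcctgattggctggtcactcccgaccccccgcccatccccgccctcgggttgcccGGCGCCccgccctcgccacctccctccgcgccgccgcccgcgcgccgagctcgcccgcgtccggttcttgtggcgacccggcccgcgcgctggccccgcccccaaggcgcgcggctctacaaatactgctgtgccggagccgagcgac
Smad6: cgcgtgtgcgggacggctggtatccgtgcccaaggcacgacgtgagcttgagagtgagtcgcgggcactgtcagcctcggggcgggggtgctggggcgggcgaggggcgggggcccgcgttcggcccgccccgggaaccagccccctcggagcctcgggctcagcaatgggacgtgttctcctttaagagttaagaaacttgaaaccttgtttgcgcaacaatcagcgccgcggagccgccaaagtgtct

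All 10 genes changed over the course. The limma F test over the 21 time points gave Benjamini-Hochberg adjusted p-values from 1.5e-20 for Bmp7 to 7.02e-11 for Id4, against the threshold of 0.0001 used throughout, which 74.6% of all genes passed. With voom weights Msx1 was not called (0.000154), which left 9 of 10. Between consecutive time points, 7 of the 10 passed in at least 1 of the 20 steps of 6 h, compared with 29.3% of all genes. These were the 4 Id genes, Bmp2, Bmp7 and Smad6. Without replicate A at 6 h the number was 4. Most of the calls fell on the first step. The exceptions were the drops of Id2 and Id4 from 6 h to 12 h, a rise of Id1 from 60 h to 66 h and a rise of Id3 from 102 h to 108 h. Bmp4, Msx1 and Msx2 passed in no single step and in longer comparisons only. The range between the lowest and highest time point mean was 3.19-fold for Id2, the flattest of the 10, and 221-fold for Bmp2, which counted between 0 and 175 reads.

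**Figure D1:**
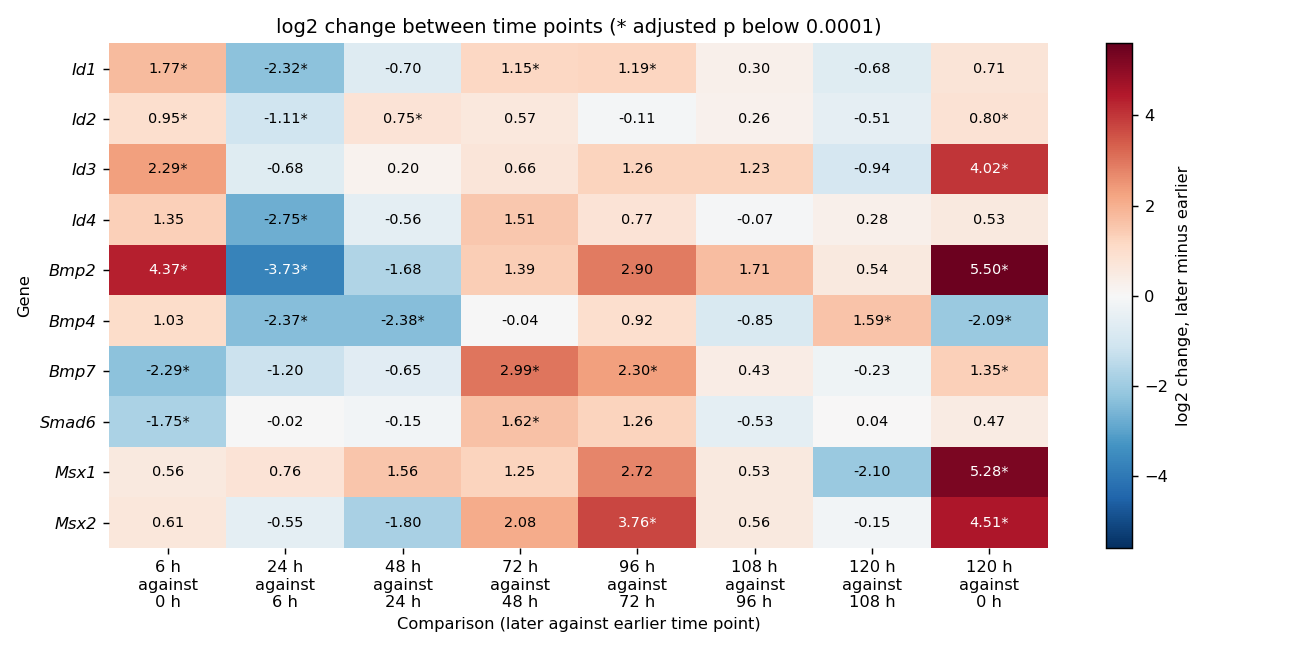
Heat map of the log2 change (later minus earlier time point) of each gene in the 8 comparisons; rows are genes, columns are comparisons, colour gives the change and an asterisk marks an adjusted p below 0.0001. The first column holds 4 rises and 2 drops, the second 5 drops and no rise, and the comparison of 108 h with 96 h holds no call.

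The first comparison asked what happened within 6 h of LIF withdrawal. Id1, Id2, Id3 and Bmp2 rose, whereas Bmp7 and Smad6 fell, which makes 4 of 10 higher and 2 of 10 lower. Of all genes, 11.8% were called higher and 14.5% lower. The median change of the 10 was 0.99 on the log2 scale, beside -0.05 over all genes tested. Marker levels moved over the same hours. The 4 neural ectoderm markers summed to 17.7 CPM and 14.4 CPM at 0 h, 63.6 CPM and 57.7 CPM at 6 h and 22.4 CPM and 26.6 CPM at 24 h, and the surface ectoderm marker was between 0.95 and 1.27 CPM, between 2.72 and 3.03 CPM and between 1.37 and 1.42 CPM. The 6 fibroblast markers summed to 24.2 CPM and 28.0 CPM at 0 h and 12.2 CPM and 11.8 CPM at 6 h, and the pluripotency markers to between 4190 and 4296 CPM at 6 h. The part of these cells in the changes of the 10 genes was not tested.

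Among the ligands, Bmp2, which is expressed in the extraembryonic endoderm of the early embryo, was close to undetected in the undifferentiated cells, with 2 and 4 reads. At 6 h it had 93 and 42 reads. Its log2 CPM went from -3.24 and -2.42 to 1.76 and 1.31, a rise of 4.37 (SE 0.66, adjusted p = 2.75e-06). Both 6 h libraries lay far above both 0 h libraries. The ratio of the summed reads per library size was 24.0, with a 95% Clopper-Pearson interval from 10.8 to 66.6 that covers counting error only. The call was lost without replicate A at 0 h (adjusted p = 0.00023) or replicate A at 6 h (0.000175), with changes of 3.96 and 4.14.

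Bmp4, the most abundant of the 10 at both times, went from 7.13 and 7.08 to 8.16 and 8.12. Both replicates differed by the same 1.03 on the log2 scale (SE 0.27), and the duplicates at each time were close together, yet the change did not pass the threshold (adjusted p = 0.00182). In the test, all time points share 1 estimate of the spread, and the spread of Bmp4 between duplicates over the course (SD 0.29) came with a difference of 1.62 at 96 h, described below. Bmp7, whose product can pair with BMP2 or BMP4 in heterodimers, moved the other way. Its log2 CPM was 3.65 and 3.56 at 0 h and 1.16 and 1.47 at 6 h, a drop of 4.89-fold (log2 change -2.29, SE 0.25, adjusted p = 1.29e-08). The ligand genes therefore did not move as 1 block in the first 6 h.

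Of the Id genes, Id1, the classical BMP target of stem cells, went from 4.92 and 5.16 to 6.77 and 6.86, a 3.42-fold rise (SE 0.15 on the log2 scale, adjusted p = 2e-10). This was its highest mean of the whole course. Id3, which acts redundantly with Id1 in the embryo, started at its lowest level of the course, 1.58 and 1.94, and reached 3.86 and 4.23, a 4.88-fold rise (SE 0.23, adjusted p = 3.52e-09). Id2 had the smallest rise of the 3, from 4.65 and 4.70 to 5.62 and 5.63 (1.93-fold, SE 0.12, adjusted p = 1.32e-07). Its duplicates were the closest of all 10 genes over the course, with an SD of 0.11. Id4, best known from neural progenitors, was at 2.37 and 2.39 at 0 h and at 3.75 and 3.72 at 6 h. The difference of 1.35 (SE 0.28) narrowly missed the threshold, with an adjusted p of 0.000195, and passed it in the paired fit with the replicate block (9.41e-05), with voom weights (4.8e-05), after quantile normalization (7.59e-05) and on the log2(CPM + 1) scale (4.6e-05). In all 4 Id genes both 6 h libraries lay above both 0 h libraries. The share of all genes separated in this way was not counted.

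Smad6, a Smad that BMP signals induce and that blocks the receptors in turn, fell from 2.25 and 2.47 to 0.05 and 1.17, a 3.37-fold drop (log2 change -1.75, SE 0.28, adjusted p = 6.66e-06). The 6 h libraries, with 28 and 38 reads, differed by 1.12 on the log2 scale, the widest gap between duplicates of this gene. Without replicate A at 6 h the change was -1.19 and no longer passed (adjusted p = 0.00151). The same held without replicate B at 0 h (0.000363) and after quantile normalization (-1.32, 0.000286). By 12 h Smad6 was back at 1.61 and 1.55. Msx1 and Msx2, which encode homeobox repressors of limb, neural crest and posterior mesoderm, were low at both times. Msx1 had 2 and 5 reads at 0 h and 16 and 1 at 6 h, so its replicates moved in opposite directions (adjusted p = 0.459). Msx2 was at -0.20 and -1.07 and then at -0.23 and 0.19 (adjusted p = 0.255).

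**Figure D2:**
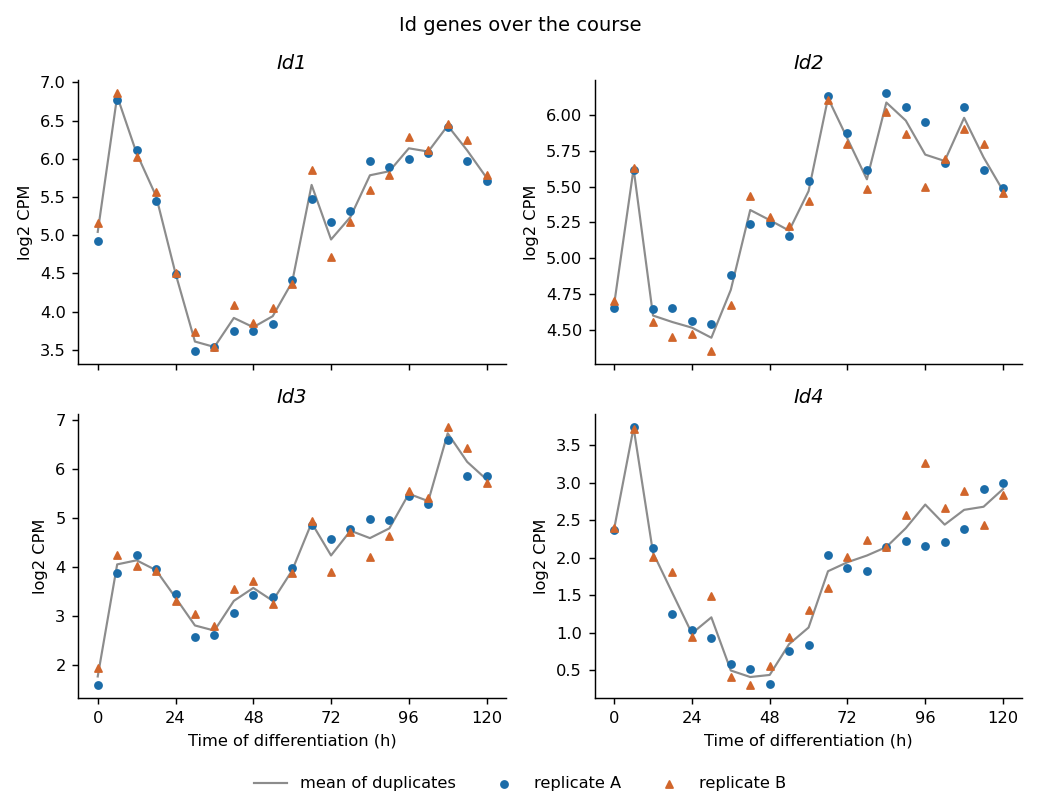
Log2 CPM of Id1, Id2, Id3 and Id4 against time of differentiation in h; circles are replicate A, triangles replicate B, the grey line is the mean of the duplicates, and each panel has its own vertical scale. All 4 genes stand higher at 6 h than at 0 h in both libraries, Id1 and Id4 have their lowest means at 36 h and 42 h, and Id3 ends far above its start.

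From 6 h to 24 h, Id1, Id2, Id4, Bmp2 and Bmp4 fell, 5 of 10 lower and 0 of 10 higher, compared with 5.76% of all genes lower and 5.64% higher. This comparison shares the 6 h libraries with the first, so a high 6 h value enters both. The median change of the 10 was -1.16, beside -0.01 over all genes. Of the 4 genes called higher at 6 h, Id1, Id2 and Bmp2 were called lower here and Id3 was not.

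Bmp4 stood at 5.73 and 5.81 at 24 h, 5.15-fold below 6 h (SE 0.27, adjusted p = 7.28e-08) and below both of its 0 h libraries. Bmp2 was back at 6 and 7 reads, a log2 change of -3.73 (SE 0.66, adjusted p = 5.24e-05), with a ratio of summed reads at 6 h to 24 h of 14.9 (95% interval 8.44 to 28.8). Leaving out any 1 of the 4 libraries lost this call (adjusted p from 0.000521 to 0.00207), as did quantile normalization (0.000263). Bmp7 was lower still, at -0.01 and 0.24, with a change of -1.20 that did not pass (adjusted p = 0.000324).

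Id1 dropped 4.99-fold to 4.50 in both replicates (adjusted p = 2.08e-12), and Id4 dropped 6.71-fold to 1.04 and 0.94 (adjusted p = 1.21e-08). Id2 dropped 2.16-fold to 4.56 and 4.47 (adjusted p = 2e-08). The timing was not the same for each. Id2 had already lost its gain by 12 h, when it was at 4.64 and 4.55 (step change -1.03, adjusted p = 2.7e-07), and the step of Id4 was -1.67 (adjusted p = 7.05e-05), whereas the step of Id1 was -0.75 (0.000578) and that of Id3 was 0.08 (0.828). Id3 thus stayed near 4 on the log2 scale through 18 h, at 3.95 and 3.91, and at 24 h, at 3.43 and 3.30, was not separated from 6 h by the test (change -0.68, adjusted p = 0.0201). Smad6, at 0.18 and 0.99 at 24 h, differed from 6 h by -0.02 (adjusted p = 0.958).

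Between 24 h and 48 h, Id2 rose and Bmp4 fell further, 1 of 10 in each direction, compared with 5.27% of all genes higher and 3.7% lower. Id2 reached 5.24 and 5.29 at 48 h (1.68-fold, SE 0.12, adjusted p = 1.26e-05). That call was lost on leaving out any 1 of the 4 libraries (adjusted p from 0.000194 to 0.000748, changes from 0.71 to 0.80) or after quantile normalization (0.000103). Bmp4 fell by a further 5.2-fold, to 3.33 and 3.46 (adjusted p = 8.37e-08), and its mean stayed between 3.24 and 3.56 at every time point from 48 h to 108 h other than 96 h.

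Id1 at 3.74 and 3.85, Id3 at 3.42 and 3.71 and Id4 at 0.31 and 0.56 were not called against 24 h (adjusted p = 0.000656, 0.572 and 0.149). Id1 had its lowest mean at 36 h, with 3.54, a level 9.72-fold below its 6 h peak. The lowest means of Id4 and Smad6 fell at 42 h, those of Bmp7 at 36 h and of Msx2 at 48 h. Id2 had its lowest mean at 30 h, with 4.44. The lowest mean of Bmp2 fell at 54 h, where replicate A had 0 reads, which allows up to 3, and replicate B had 1. Msx1 was the exception among the low genes. Its log2 CPM at 48 h was 0.27 and 0.11, above all libraries before 48 h, and the change of 1.56 from 24 h did not pass (adjusted p = 0.0583).

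**Figure D3:**
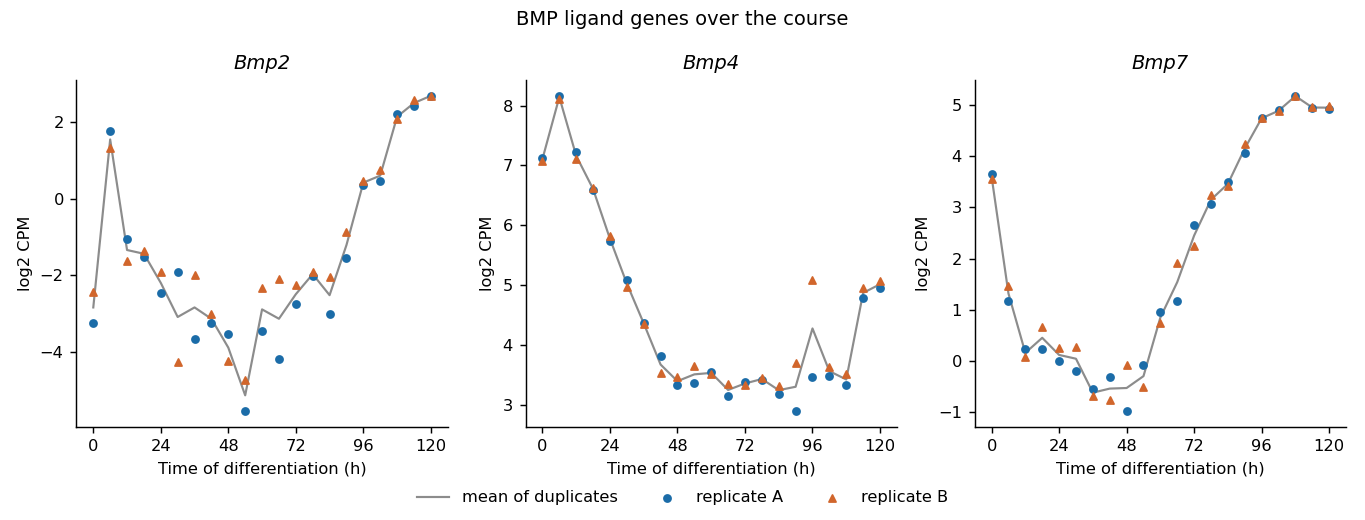
Log2 CPM of Bmp2, Bmp4 and Bmp7 against time of differentiation in h; circles are replicate A, triangles replicate B, the grey line is the mean of the duplicates, and each panel has its own vertical scale. Bmp4 starts highest and is lowest in mid-course, Bmp7 has a trough from 12 h to 54 h and ends above its start, and Bmp2 has a peak at 6 h and its highest values from 108 h to 120 h.

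The next comparison set 72 h against 48 h. Bmp7, Smad6 and Id1 rose, 3 of 10 higher and none lower, compared with 5.6% of all genes higher and 3.78% lower. The median change of the 10 was 1.32, beside 0.01 over all genes. Bmp7 gained most, from -0.98 and -0.09 to 2.66 and 2.24, a 7.93-fold rise (SE 0.25, adjusted p = 8.03e-10). Id1 went from 3.74 and 3.85 to 5.17 and 4.71 (2.22-fold, adjusted p = 1.34e-06), and Smad6 from 0.50 and 0.37 to 2.32 and 1.80 (3.08-fold, adjusted p = 5.03e-05). Without replicate A at 48 h or replicate A at 72 h, 1 of the 10 was called. The adjusted p of Id1 was then 0.000108 and 0.000191, and that of Smad6 was lost without any 1 of the 4 libraries (0.000147 to 0.00277) and after quantile normalization (1.21, 0.00165).

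Id4 went from 0.31 and 0.56 to 1.86 and 2.01, a change of 1.51 that missed the threshold (adjusted p = 0.000131) and passed with the replicate block (5.94e-05). Msx2 was at -2.38 and -2.36 and then at -0.17 and -0.41 (change 2.08, adjusted p = 0.000662). Bmp4 was at 3.38 and 3.33 at 72 h (change -0.04, adjusted p = 0.927).

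Within this window, 1 of the 4 Id genes was called in a step of 6 h. Id1 rose by 1.27 on the log2 scale from 60 h to 66 h (SE 0.15, adjusted p = 2.89e-05), from 4.41 and 4.36 to 5.47 and 5.85, and was 1 of only 9 genes of 14296 called in that step. Id2, with 6.13 and 6.10, had its highest mean of the course at 66 h (step change 0.65, adjusted p = 0.00215), Id3 was at 4.85 and 4.94 (0.97, adjusted p = 0.0149), and Id4 was at 2.04 and 1.60 (0.75, adjusted p = 0.117). From 66 h to 72 h the means of Id1, Id2, Id3 and Id4 changed by -0.71, -0.28, -0.67 and 0.12, with adjusted p-values of 0.0084, 0.157, 0.0844 and 0.85, none past the threshold. The median spread between duplicates over all genes was 0.16 at 66 h and 0.19 at 72 h.

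The order in which the genes rose after 48 h was described on the log2 scale. The measure was the first later time at which both libraries lay at least 1 above the 48 h mean. Bmp7 and Smad6 met this at 60 h, Id1, Id3, Id4, Msx1 and Msx2 at 66 h, Bmp2 at 72 h and Bmp4 at 114 h. Id2, which had risen before 48 h, met it at none of the 12 later times. These times differ by few sampling intervals and were not tested against each other. The share of all genes that met the measure was not counted. The 48 h mean of Msx2, -2.37, was its lowest of the course, so the choice of 48 h favours a later rise there. Id3 and Msx1 had their lowest means at 0 h, not in mid-course. For Bmp2 the time rests on 5 and 5 reads at 72 h against 2 and 1 at 48 h. Its replicate A, with 3 reads, was less than 1 above the 48 h mean again at 84 h.

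From 72 h to 96 h, Bmp7, Id1 and Msx2 rose, 3 of 10 higher and none lower, compared with 2.39% of all genes higher and 1% lower. The median change was 1.26, beside 0.01 over all genes. Msx2 went from -0.17 and -0.41 to 2.48 and 4.45, a 13.5-fold rise (SE 0.45, adjusted p = 8.1e-07). Bmp7 went from 2.66 and 2.24 to 4.75 and 4.74 (4.92-fold, adjusted p = 1.24e-07), with close duplicates at 96 h. Id1 went from 5.17 and 4.71 to 5.99 and 6.28 (2.29-fold, adjusted p = 1.79e-06), a call lost without replicate B at 72 h (0.000417) or replicate B at 96 h (0.000128).

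Several other genes gave large changes in this comparison that missed the threshold. Bmp2 changed by 2.90 (adjusted p = 0.00174), to 0.36 and 0.47. Id3 changed by 1.26 (0.000201), to 5.44 and 5.54, and Smad6 by 1.26 (0.00148), to 3.15 and 3.50, its highest mean. With voom weights these 3 were called as well, for 6 of 10. On the log2(CPM + 1) scale 6 were also called, with Msx1 in place of Id3. Over all genes, 610 and 689 were called under these settings, beside 484 in the main fit.

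Over all genes the duplicates were farthest apart at 96 h. Replicate B exceeded replicate A by over 1 on the log2 scale in 4 of the 10 genes, compared with 5.42% of all genes. Msx1 was at 2.96 and 5.37, with 268 reads in the first and 1092 in the second. Msx2 was at 2.48 and 4.45, Bmp4 at 3.47 and 5.08 and Id4 at 2.15 and 3.27. Bmp7, Bmp2, Id1 and Id3 differed by less than 0.3 between the same libraries. At 90 h and 102 h none of these 4 genes had a gap above 1. At 90 h replicate B already stood above replicate A, by 0.80 for Bmp4, 0.70 for Msx2, 0.41 for Msx1 and 0.34 for Id4. At 102 h the differences were 0.15, -0.50, 0.19 and 0.46 in the same order.

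The 96 h library of replicate B had a high level of primitive streak and early mesoderm markers. Their summed level over the 4 listed genes was 101 CPM in replicate A and 474 CPM in replicate B at 96 h. It was 70.3 CPM and 119 CPM at 90 h and 127 CPM and 112 CPM at 102 h. The 3 listed endoderm markers summed to 9.36 CPM and 27.0 CPM and the 3 listed trophoblast markers, Cdx2 and Hand1 among them, to 38.5 CPM and 99.0 CPM, the surface ectoderm marker was at 2.11 CPM and 6.02 CPM, and the 6 pluripotency markers summed to 1140 CPM and 1823 CPM, while the 6 fibroblast markers summed to 24.2 CPM and 9.16 CPM and the 4 neural ectoderm markers to 117.3 CPM and 126.6 CPM. Mesp1 and Tbx6 of the streak list and Sox17, Afp and Ttr of the endoderm list were not among the genes analysed here. The part of these cells in the values of Msx1, Msx2, Bmp4 and Id4 was not tested. With replicate B as the only 96 h library, the change from 72 h was 1.73 for Bmp4 and 3.93 for Msx1. With both libraries these changes were 0.92 and 2.72.

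**Figure D4:**
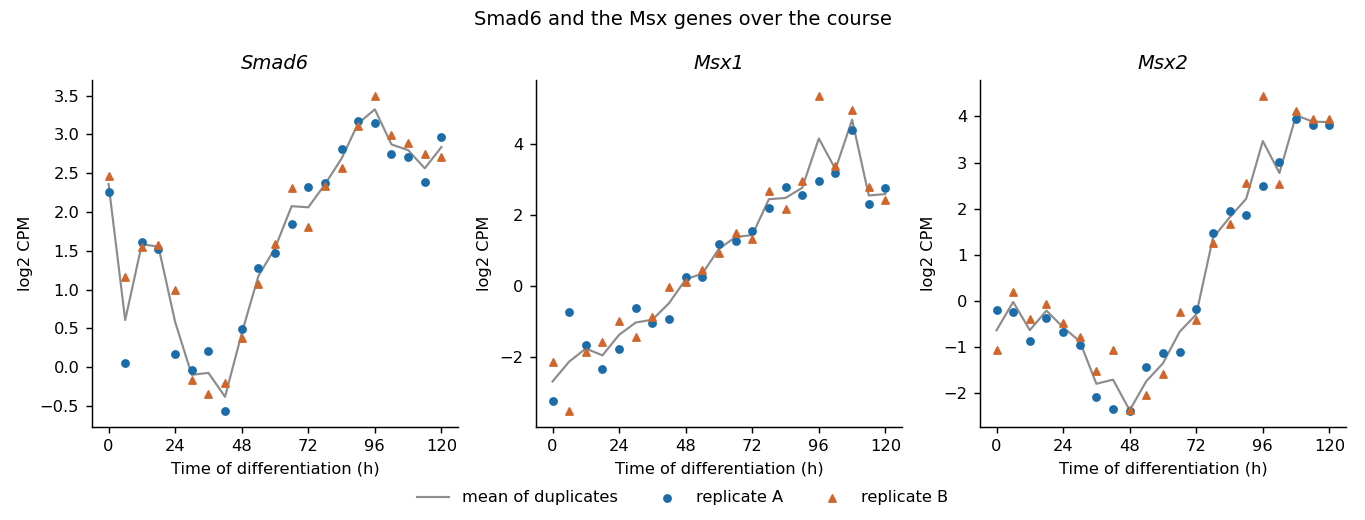
Log2 CPM of Smad6, Msx1 and Msx2 against time of differentiation in h; circles are replicate A, triangles replicate B, the grey line is the mean of the duplicates, and each panel has its own vertical scale. Smad6 has a trough around 42 h, Msx1 climbs from below -2 to a highest mean of 4.69 at 108 h, Msx2 is above 1 from 78 h on, and at 96 h replicate B stands above replicate A by 2.41 for Msx1 and 1.97 for Msx2.

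From 96 h to 108 h no gene of the 10 was called, compared with 3.85% of all genes higher and 3.13% lower. At an unadjusted p below 0.05, 4 of the 10 and 6203 of all genes passed, and 2 of the 10, Id3 and Bmp2, were called with voom weights and on the log2(CPM + 1) scale. Id3 went from 5.44 and 5.54 to 6.59 and 6.85, its highest level (change 1.23, SE 0.23, adjusted p = 0.000146). Against 102 h, where it was at 5.28 and 5.40, the rise of 1.38 passed (adjusted p = 9.7e-05). Bmp2 went from 0.36 and 0.47 to 2.20 and 2.06 (change 1.71, adjusted p = 0.0446). Without replicate A at 96 h the change of Bmp4 was -1.66, beside -0.85 with both libraries. Msx1, Msx2 and Bmp7 had their highest means of the course at 108 h, with 4.69, 4.03 and 5.18. In replicate B alone, Msx1 and Msx2 were highest at 96 h, with 5.37 and 4.45.

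From 108 h to 120 h only Bmp4 rose, 1 of 10, compared with 2.39% of all genes higher and 1.73% lower. It went from 3.33 and 3.51 to 4.96 and 5.07, a 3.01-fold rise (SE 0.27, adjusted p = 7.61e-05), and it stood at 4.79 and 4.95 at 114 h already (step change 1.45, adjusted p = 0.000376). The call did not outlast the loss of any 1 of the 4 libraries (adjusted p from 0.00104 to 0.00272) or quantile normalization (0.000176), although the change stayed between 1.50 and 1.68. Id1, Id2 and Id3 were lower at 120 h than at 108 h in both replicates, by 0.68, 0.51 and 0.94 in the mean, with adjusted p-values of 0.00137, 0.00193 and 0.00295. Msx1 went from 4.41 and 4.98 to 2.76 and 2.43, with -2.10 and 0.0126.

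The last comparison set the end of the course against its start. Id2, Id3, Bmp2, Bmp7, Msx1 and Msx2 stood higher at 120 h and Bmp4 stood lower, which makes 6 of 10 higher and 1 of 10 lower. Of all genes, 12.9% were called higher and 10.1% lower. The 0 h libraries are shared with the first comparison and the 120 h libraries with the one before. The median change of the 10 was 1.07, beside -0.02 over all genes.

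Among the ligands, Bmp4 was lower and Bmp2 and Bmp7 were higher, while their order per length (Bmp4, Bmp7, Bmp2) was the same at both ends. Bmp2 rose from 2 and 4 reads to 175 and 154 reads, a log2 change of 5.50 (SE 0.66, adjusted p = 6.71e-08) and a ratio of summed reads of 50.5 (95% interval 22.9 to 139). Bmp7 rose 2.55-fold, from 3.65 and 3.56 to 4.93 and 4.98 (adjusted p = 4.51e-05), a call that was lost without any 1 of the 4 libraries (0.000618 to 0.00122) with changes from 1.31 to 1.39. Bmp4 ended 4.26-fold below its start (adjusted p = 2.38e-07).

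Of the targets, Id3 rose 16.2-fold, to 5.85 and 5.70 (SE 0.23, adjusted p = 3.29e-14), and Id2 1.73-fold, to 5.49 and 5.45 (adjusted p = 2.15e-06, but 0.000117 without replicate A at 0 h and 0.000114 without replicate A at 120 h). Id1 at 5.71 and 5.79 (change 0.71, adjusted p = 0.000293) and Id4 at 2.99 and 2.84 (0.53, 0.118) were not called, although both had gone through a deep trough in between. Smad6 at 2.97 and 2.70 also ended near its start (0.48, 0.161). The Msx genes rose most among the targets. Msx1 went from 2 and 5 reads to 187 and 130 reads (log2 change 5.28, SE 0.62, adjusted p = 4.91e-08), a ratio of summed reads of 41.7 (95% interval 20.0 to 105), and was not called with voom weights (0.00359). Msx2 rose 22.9-fold, to 3.81 and 3.95 (SE 0.45, adjusted p = 2.99e-09).

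The 10 genes shared parts of their time courses to differing degrees. Over the 42 libraries, which all genes share, the Pearson correlation of log2 CPM was highest between Bmp7 and Msx2 (0.91), Bmp7 and Smad6 (0.89) and Id1 and Id4 (0.88). Id3 was closer to Msx2 (0.84) and Msx1 (0.81) than to Id1 (0.71), and Id2 was at 0.50 with Id1. Bmp4 was the gene apart, at -0.66 with Msx1, -0.59 with Id2 and 0.34 with Id4, its closest. Consecutive time points are not independent, and these values describe likeness of course only.

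The genes most like each member were sought among the 12911 genes that averaged 0 log2 CPM or more. The 3 closest to Bmp4 were Jam2 (0.97), Dlgap3 (0.97) and Ceacam1 (0.97), and to Bmp7 they were Plpp5 (0.97), Atp2b4 (0.97) and Scmh1 (0.97). Bmp2 was closest to Clu (0.93), Myadm (0.92) and Vgll3 (0.92). Anxa2, which encodes a membrane-binding annexin, was the closest to Id1 (0.93) and was second for Id4 (0.94), between Dkkl1 (0.94) and Fblim1 (0.91), while Tinagl1 (0.92) and Slc35e4 (0.91) followed it for Id1. Id2 was closest to Crb3 (0.93), D1Ertd622e (0.92) and Sdcbp (0.92), and Id3 to Lpar6 (0.95), Junb (0.95) and Creb3 (0.94). Smad6 was closest to Nfatc4 (0.95), Stat5a (0.94) and BC034090 (0.93), Msx1 to Piezo2 (0.95), Fbxo32 (0.95) and Sdk1 (0.94), and Msx2 to Pdlim7 (0.95), Phc2 (0.95) and Wnt4 (0.95).

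A list of 70 further genes of the pathway was examined beside the 10, of which 51 were in the files and 19 were not analysed here. From 0 h to 6 h, 6 of the 51 rose and 6 fell, with a median change of 0.10, compared with 11.8% of all genes higher and 14.5% lower, so the list was at or below the share of all genes. Follistatin (Fst), a secreted antagonist of activin and some BMPs, rose from -0.01 and -0.23 to 3.74 and 3.58 (change 3.78, adjusted p = 3.55e-10), while Fstl3 fell by 2.99 (4.24e-10) and Dand5, a secreted antagonist of Nodal, by 1.84 (8.69e-06). Zfp423, a zinc finger partner of the BMP Smads, rose by 1.69 (3.36e-09). Cdx2 and Gata3, trophoblast and posterior transcription factor genes that BMP can induce, rose from 0 and 3 reads to 37 and 31 and from 0 and 4 reads to 28 and 20, with ratios of summed reads of 24.2 (95% interval 7.94 to 120) and 12.8 (4.69 to 48.9).

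The E proteins that the Id proteins bind did not move together in these 6 h. Tcf12 rose by 0.90 (adjusted p = 1.14e-05), Tcf4 fell by 0.70 (5.56e-05), and Tcf3, the most abundant, changed by -0.54 without passing (0.00058). By 120 h Tcf12 stood 1.78 above its start (9.09e-11), and the other two were not called.

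In the middle of the course fewer of the 51 were called, as was the case over all genes. From 6 h to 24 h 3 rose and 4 fell (5.64% and 5.76% of all genes). Skil, a repressor of Smad transcription, rose by 1.74 (adjusted p = 1.18e-08), and Kcp, a secreted modulator, fell by 1.99 (3e-06). Tbx3 (-1.67), a T-box gene of naive stem cells, Prdm1 (-1.63) and Rgmb (-0.97) also fell, and Gdf3 (1.22) rose. From 24 h to 48 h 1 rose and 4 fell (5.27% and 3.7% of all genes). Tbx3 fell by 3.17 (7.34e-10). Acvrl1 (-1.86), Zfp423 (-1.17) and Fstl1 (-0.78) also fell, and Acvr1 (0.70) rose. From 48 h to 72 h 5 rose and 2 fell (5.6% and 3.78% of all genes). Among the 11 receptor and co-receptor genes 4 rose, Acvrl1 (1.81), Tgfbr3 (1.51), Rgma (2.07) and Rgmb (1.43). The receptor genes Bmpr1a (-0.05) and Bmpr2 (-0.08) were not called. Bmp1 (1.54), the protease that cleaves the antagonist chordin, rose as well. The drops were the target Dusp9 (-1.42, adjusted p = 2.17e-10) and the ligand Gdf3 (-1.31, 5.88e-06). Bmp7, Smad6 and Id1 rose over the same times. From 72 h to 96 h, Nbl1 (2.41), Tbx3 (1.88) and Bmp1 (1.13) rose and none fell (2.39% and 1% of all genes).

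Late in the course, Smad1, which carries the BMP signal, rose by 0.54 from 96 h to 108 h (adjusted p = 4.84e-05), with Twsg1 (0.61) and Dusp9 (0.78), and fell by 0.63 from 108 h to 120 h (9.17e-06) as the only call among the 51 there. Over all genes the shares were 3.85% higher and 3.13% lower in the first of these comparisons and 2.39% and 1.73% in the second. Between 0 h and 120 h, 15 of the 51 rose and 3 fell, with a median change of 0.63, compared with 12.9% of all genes higher and 10.1% lower and a median of -0.02. By role, the calls up and down were 5 and 1 of 11 receptors, 4 and 1 of 12 extracellular antagonists and modulators, 3 and 1 of 11 other targets, and none of 7 intracellular inhibitors, where Smad7 changed by -0.73 (0.00137). The antagonist noggin (Nog) went from 15 and 14 reads to 221 and 231 (change 3.80, adjusted p = 3.6e-07), Fst rose by 4.40 (1.17e-11), and Hand1, a factor of extraembryonic mesoderm and heart, rose by 3.75 (5.16e-05). Gata3 reached 281 and 253 reads, a ratio of 123 (95% interval 47.7 to 453), and Cdx2 60 and 58 reads, a ratio of 36.2 (12.1 to 178). The ligand gene Gdf6 had 0 reads in both 0 h libraries and 25 and 9 at 120 h, so no fold is given.

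Id1, Bmp2 and Bmp7 lie on chromosome 2, at chr2:152736251-152737410, chr2:133552159-133562885 and chr2:172868012-172940321 of GRCm38, and Id4 (chr13:48261228-48266026) and Msx2 (chr13:53466884-53473074) on chromosome 13. The others are Id2 at chr12:25093799-25097140, Id3 at chr4:136143497-136145755, Bmp4 at chr14:46383520-46390669, Smad6 at chr9:63953076-64022059 and Msx1 at chr5:37820485-37824583. All are protein coding in the GENCODE annotation, and the values count reads over the exons of the whole gene. Exons of Id4 share 82 and 171 bases with the opposite-strand genes A330033J07Rik and Gm49291, which is 2.13% and 4.44% of its exonic length, and those of Bmp4 share 89 bases (3.96%) with Gm15217. Whether the counting used strand is not given in the sources used here, so these short overlaps leave the values of both genes slightly uncertain.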

How the data were processed

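Poly-A RNA from 21 time points of duplicate embryoid body courses was sequenced by the authors with a strand-specific kit. Per the labels and methods, Trim Galore served for trimming, TopHat2 for alignment to mm10 and HTSeq for counts on the GENCODE vM2 annotation. The authors kept genes above 1 CPM in 2 or more samples, scaled them by library size with edgeR and passed them to voom. Tool versions are not given in the sources used here. The deposited values are log2 CPM with the voom offset of 0.5 reads. Inverting the voom formula returned whole reads for each value (within 2.07e-08 of a read), and the reads printed here are those.

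Time point and replicate were taken from the sample labels. The deposited log2 values were tested with limma 3.58.1 in R 4.3.3 (lmFit, eBayes with trend), as a factor of 21 time points over all 42 libraries with 21 residual degrees of freedom. P-values were two-sided and adjusted by Benjamini-Hochberg over 14296 genes within each contrast, with a threshold of 0.0001. The spread is shared by all time points, so a p-value rests on duplicates throughout the course, and it measures the spread between these cultures of 1 line. The script was tested on simulated data. The libraries are paired by design, since each letter names 1 of the duplicate courses. Between the 210 pairs of time points, residuals of libraries with the same letter correlated at 0.08 on average (from -0.47 to 0.60), and a fit with the letter as a block was an alternative.

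The genes, the pathway list, the marker lists and the contrasts were chosen with earlier results of these data known. Genes named beside the members were the 3 most correlated genes of each, up to 6 called pathway genes per contrast by size of change, Tcf3, Tcf4 and Tcf12. Smad7, Bmpr1a and Bmpr2, and the drop of Gdf3 from 48 h to 72 h, were named after their values were seen. Of the 14296 genes, 14177 matched GENCODE vM21 on GRCm38. Intervals are exact (Clopper-Pearson, 95%) and cover counting error only. The main fit used the deposited log2 values. Apart from the voom weights, which were computed from the recovered reads, no count tool was run. Alternatives were the replicate block, voom weights, quantile normalization, log2(CPM + 1), a filter at a mean of 0 log2 CPM, correction over all contrasts, a threshold of 0.05 and leaving out each library.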

Additional observations from a re-analysis of the deposited data

How the results depend on the processing

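No change that passed the threshold reversed its sign under the alternatives run. Changes that did not pass could. Smad6 from 6 h to 24 h was 0.039 with voom weights and 0.034 after quantile normalization, which also gave 0.075 for Id4 from 96 h to 108 h and -0.10 for Smad6 from 108 h to 120 h. Without 1 library, Msx1 ranged from -0.83 to 1.95 (0 h to 6 h), from -0.63 to 2.14 (6 h to 24 h) and from -0.68 to 1.74 (96 h to 108 h), and Msx2 from -0.42 to 1.54 (96 h to 108 h). Smad6 ranged from -0.58 to 0.54 (6 h to 24 h), from -0.56 to 0.26 (24 h to 48 h) and from -0.10 to 0.17 (108 h to 120 h), Bmp4 from -0.10 to 0.024 (48 h to 72 h), Id2 from -0.34 to 0.12 (72 h to 96 h) and Id4 from -0.63 to 0.49 (96 h to 108 h). With the replicate block the number of the 10 genes called was 7 from 0 h to 6 h and 4 from 48 h to 72 h, Id4 being added in both, and the paired fit changed no other call. The number called from 24 h to 48 h was 2 and became 1 after quantile normalization, 5 at a threshold of 0.05 and 1 without any 1 library. From 48 h to 72 h it was 3, with 7 at the threshold of 0.05 and from 1 to 2 without 1 library. From 72 h to 96 h it was 3, with 6 under voom weights, 6 on the log2(CPM + 1) scale, 9 at the threshold of 0.05 and from 2 to 5 without 1 library. From 96 h to 108 h it was 0, with 2 under voom weights, 2 on the log2(CPM + 1) scale, 1 with correction over all contrasts, 3 at the threshold of 0.05 and from 0 to 1 without 1 library. From 108 h to 120 h it was 1, with 0 after quantile normalization, 5 at the threshold of 0.05 and 0 without 1 library. The number called in at least 1 step of 6 h was 7, and from 4 to 8 without 1 library. Counts over all genes shifted with the setting as well. From 0 h to 6 h they were 3762, with 4291 under the replicate block. From 24 h to 48 h they were 1282, with 1038 after quantile normalization and 4275 at the threshold of 0.05. From 48 h to 72 h they were 1341, with 1667 under the block and 5851 at that threshold. From 72 h to 96 h they were 484, with 610 under voom weights, 689 on the log2(CPM + 1) scale and 4137 at 0.05. The cause of these shifts was not tested.

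Over the single genes, leaving out 1 library at a time kept the direction and the side of the threshold in 273 cases, lost 30 calls, added 4 and changed the sign in 13. Those fits leave a time point with 1 library, which is assumed to vary like the others. Over the whole course, 9 of 10 passed with voom weights, Msx1 being lost. The filter at a mean of 0 log2 CPM removed Bmp2 and kept all of the other 72 as they were. Bmp2 had 0 to 3 reads in 12 libraries between 0 h and 84 h and Msx1 in 3 between 0 h and 30 h. Depth limits these values, and their log2 scale depends on the voom offset.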
